A study of Mus musculus with 6 samples.

Results

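The genes described here are 33 genes of S phase and DNA replication, followed by RNA sequencing in muscle stem cells of the mouse kept in culture. They were taken as the genes of the expression table whose symbol equals one of 33 listed symbols, and all 33 were found among 43283. In 7 groups by role, they cover origin licensing and the MCM2-7 ring (Mcm2, Mcm3, Mcm4, Mcm5, Mcm6, Mcm7, Cdc6 and Cdt1), helicase activation (Mcm10, Cdc45 and Gins2), and DNA synthesis (Pcna, Rfc2, Rfc4, Dscc1, Pola1, Prim1, Pold3 and Fen1). The other groups are deoxynucleotide supply (Tyms, Rrm1 and Rrm2), chromatin and histone supply (Chaf1b, Uhrf1, Hells and Slbp), fork checkpoint and repair (Clspn, Tipin, Dtl and Ung), and G1/S regulation (E2f1, Ccne1 and Ccne2). They were matched by symbol alone, from a list drawn up with earlier results of these data known.

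The cells came from hindlimb muscle of female C57BL/6 mice, whose age is given as 8 to 12 weeks in the protocol and as 2 to 4 months in the design text. They were sorted as CD45-, Sca1-, CD31-, CD11b-, alpha7-integrin+ and CD34+ cells, with no genetic change named for any of them. In culture they received either prostaglandin E2 (PGE2), a lipid signal released in injured tissue, or its solvent DMSO (Vehicle), for 24 h. The medium held 20% fetal bovine serum, 40% F-10 and 40% of a low-glucose medium that the labels write as DMD. Each group had 3 libraries, made from RNA of 5000 to 10000 cells that was amplified before library construction. The sources used here give no dose of PGE2. The design text calls the libraries biological triplicates but does not say whether separate mice, sorts or culture dishes gave them, so a p-value speaks only of the spread between these libraries, and that spread may be technical.

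Muscle stem cells rest outside the cell cycle in intact muscle and enter it when they are activated, as happens after sorting and plating. In G1 the origin recognition complex, Cdc6 and Cdt1 load MCM2-7 rings on DNA, and in S phase Cdc45 and the GINS complex turn them into active helicases. The clamp PCNA then holds the polymerases on the template while ribonucleotide reductase and thymidylate synthase supply deoxynucleotides and chromatin factors repackage the new DNA. Most of these genes are known targets of E2F transcription factors, which cyclin E with CDK2 helps to release from the retinoblastoma proteins. Their transcripts are therefore widely read as signs of cycling cells. In bulk RNA, fewer cells in S phase and less of a transcript per cell cannot be told apart.

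Because these genes are known as E2F targets, the DNA around their transcription start sites was read first. RefSeq windows from 250 bases before to 50 bases after the start (build GRCm38.p6, 300 bases each) were on hand for 27 of the 33 genes, as 30 windows, since Fen1, Mcm7 and Uhrf1 each had 2. No window was on hand for Ccne2, Dscc1, Gins2, Mcm4, Rfc2 and Tipin. The starts are those of RefSeq and can differ from the gene ends of the GENCODE annotation. The windows of Cdc6, E2f1 and Mcm7 and 1 window of Uhrf1 lay wholly inside the GENCODE gene span. The E2F words TTTCGCGC, TTTGGCGC, TTTCCCGC and TTTGCCGC were searched on both strands, overlapping matches included. A word was present in 12 of the 30 windows (40.0%), in 1 window each of Cdc6, Cdt1, Clspn, Dtl, Hells, Mcm3, Mcm5, Mcm6, Mcm7, Pola1, Pold3 and Uhrf1. The same words were in 24 of 87 windows (27.6%) of other replication genes, in 1 of 33 windows (3.0%) of G2 and mitosis genes, in 607 of 21263 windows (2.9%) of protein-coding genes and in 744 of all 32851 windows (2.3%). Such a match is a description of the sequence and not evidence of a bound site.

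The windows of the ring genes Mcm3, Mcm5 and Mcm6 are shown because they hold the words, and that of Pcna because it is an abundant member with none. Each is written 5′ to 3′ on the gene's own strand, and capitals mark the matched E2F words. The positions are Mcm3 at chr1:20820263-20820562 on the minus strand, Mcm5 at chr8:75109259-75109558 on the plus strand, Mcm6 at chr1:128359656-128359955 on the minus strand and Pcna at chr2:132253131-132253430 on the minus strand.
Mcm3: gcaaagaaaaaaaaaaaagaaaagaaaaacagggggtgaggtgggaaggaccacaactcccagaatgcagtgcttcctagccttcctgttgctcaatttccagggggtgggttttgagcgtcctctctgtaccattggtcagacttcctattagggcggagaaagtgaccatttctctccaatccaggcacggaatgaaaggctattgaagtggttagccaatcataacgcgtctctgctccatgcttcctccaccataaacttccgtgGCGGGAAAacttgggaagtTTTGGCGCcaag
Mcm5: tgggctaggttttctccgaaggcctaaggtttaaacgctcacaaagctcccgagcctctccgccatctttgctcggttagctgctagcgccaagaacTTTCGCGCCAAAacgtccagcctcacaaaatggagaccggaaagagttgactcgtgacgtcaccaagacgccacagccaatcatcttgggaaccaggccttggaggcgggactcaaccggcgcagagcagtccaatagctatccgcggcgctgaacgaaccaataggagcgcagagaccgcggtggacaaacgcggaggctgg
Mcm6: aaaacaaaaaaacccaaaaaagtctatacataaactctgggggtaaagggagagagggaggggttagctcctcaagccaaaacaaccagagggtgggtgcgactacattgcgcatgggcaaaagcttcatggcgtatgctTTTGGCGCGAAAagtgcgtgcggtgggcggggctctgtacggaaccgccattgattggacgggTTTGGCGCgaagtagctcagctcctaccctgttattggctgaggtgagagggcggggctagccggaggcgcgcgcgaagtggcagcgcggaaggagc
Pcna: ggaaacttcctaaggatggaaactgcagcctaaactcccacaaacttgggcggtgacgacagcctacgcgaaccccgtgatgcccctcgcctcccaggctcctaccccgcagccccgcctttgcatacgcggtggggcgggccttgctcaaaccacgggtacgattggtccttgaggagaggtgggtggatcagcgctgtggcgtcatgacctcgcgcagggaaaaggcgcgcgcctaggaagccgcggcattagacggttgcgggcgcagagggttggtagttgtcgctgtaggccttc
The 2 matches of Mcm3 lay after the start site. In Mcm5, 2 matches on opposite strands overlapped in a single stretch before the start. Mcm6 held 3 matches, of which 2 likewise overlapped on opposite strands. No match in Pcna says only that these letters are not in this window.

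Words known from promoters of genes expressed later in the cycle were distributed differently. The CHR words TTTGAA and TTCGAA, searched on both strands, were in 4 of the 30 windows (13.3%) and in 26 of 33 G2 and mitosis windows (78.8%), against 19.2% of all windows. The CCAAT box (CCAAT, both strands) was in 18 of the 30 windows (60.0%), in 25 of 33 G2 and mitosis windows (75.8%) and in 37.4% of all windows. These shares describe the annotation and do not depend on the libraries.

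Expression values are TPM, a transcript's share of its library, corrected for length but not for the amplification of the RNA. Levels of different genes are set side by side on that basis, and the part of amplification in them was not tested. TPM keeps no read depth, and the depth of each library is therefore unknown. The libraries listed 15400 to 19677 genes above 0, and mitochondrial genes held 20.9% to 33.6% of the TPM. Across 12781 tested genes, the correlation of log2 values was 0.886 to 0.926 between Vehicle libraries and 0.807 to 0.846 between PGE2 libraries. The muscle stem cell and myoblast markers, 12 of 12 tested, summed to 1165.2 to 1385.4 TPM in Vehicle and 1036.6 to 1314.7 TPM in PGE2. Myf5, Sdc4 and Itgb1 carried much of that sum, at 119.83 to 302.91, 183.51 to 363.07 and 203.51 to 245.24 TPM. Myod1 lay between 89.46 and 146.22 TPM, Chrna1 between 65.63 and 174.23 TPM and Des between 34.95 and 107.02 TPM. Vcam1 lay between 48.6 and 83.59 TPM and Megf10 between 32.96 and 67.85 TPM. The lowest of the list were Cd34, Itga7 and Cdh15. The sort markers Itga7 and Cd34 lay between 2.69 and 13.16 TPM and between 12.41 and 26.16 TPM. Cdh15 lay between 0.0 and 5.15 TPM. Pax7, the defining regulator of these cells, lay between 23.91 and 66.99 TPM. Of markers of cells that the gate should remove, the endothelial list summed to 4.2 to 7.4 TPM in Vehicle and 6.9 to 19.9 TPM in PGE2, and the leukocyte list to 2.9 to 11.6 and 8.2 to 15.0 TPM. The fibro-adipogenic list, mostly Col3a1, summed to 18.8 to 31.5 and 24.9 to 45.5 TPM, and the pericyte and smooth muscle list, with Pdgfrb at 0 throughout, to 6.6 to 15.8 and 9.5 to 11.8 TPM. The glial list summed to 3.1 to 5.7 and 2.1 to 9.1 TPM, and the red cell list, with 4 of 5 genes at 0 in all libraries, to 0.0 to 2.1 and 0.0 to 2.8 TPM. The part of these other cells in any result was not tested.

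All 33 replication genes were expressed in both groups, and none differed between PGE2 and Vehicle past the threshold. Each of them passed the filter of 1 TPM or more in at least 3 libraries. With limma on log2(TPM + 1), 0 of the 33 had a Benjamini-Hochberg adjusted p under 0.05, against 0 of 12781 genes tested (0%). At an unadjusted p under 0.05 the count was also 0 of 33, against 464 of 12781 (3.63%), of which 201 were higher and 263 lower with PGE2. The groups of 3 libraries overlapped for every member, so 0 of 33 stood apart, against 1024 of 12781 genes (8.01%).

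**Figure D1:**
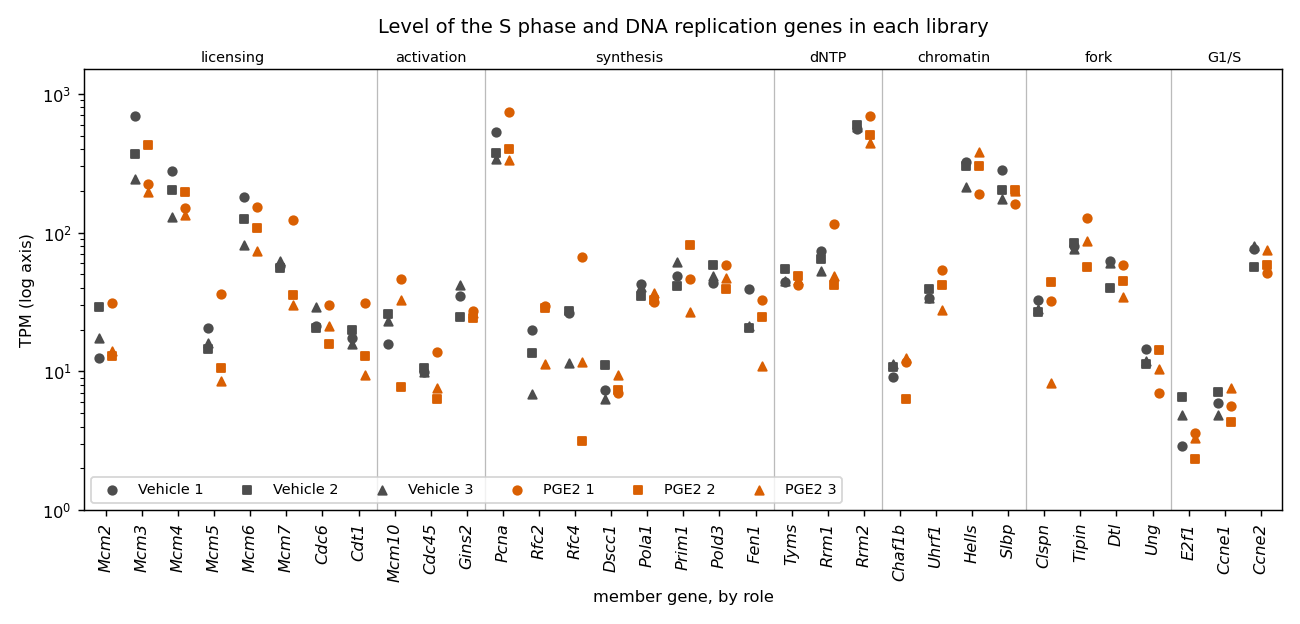
TPM of each of the 33 genes (log axis) in the 3 Vehicle libraries (grey) and the 3 PGE2 libraries (orange), grouped by role, with circles, squares and triangles for libraries 1, 2 and 3. Levels run from 2.35 TPM (E2f1, PGE2 2) to 738.79 TPM (Pcna, PGE2 1), and the grey and orange points overlap for each gene.

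The levels spanned more than 2 orders of magnitude, as the plot of levels by role shows. The 7 genes whose mean reached 100 TPM were Rrm2, Pcna, Mcm3, Hells, Slbp, Mcm4 and Mcm6. They held 67.3% to 76.9% of the summed TPM of the 33 genes in each library. Rrm2, the regulated subunit of ribonucleotide reductase, was the highest of the 33 in Vehicle 2, Vehicle 3, PGE2 2 and PGE2 3, Mcm3 was highest in Vehicle 1 and Pcna in PGE2 1. The lowest was the transcription factor gene E2f1 in 5 libraries and the cyclin gene Ccne1 in Vehicle 3.

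Fitted differences were small beside their intervals. Of the 33, 27 had a fitted log2 change below 0 (lower with PGE2) and 6 above it, which is 81.8% lower against 56.1% of all tested genes. The median log2 change was -0.16, beside -0.07 over all tested genes, and the extremes were Mcm3 at -0.58 and Rfc2 at 0.73. The count of 27 moved with single libraries. It was 17 without PGE2 2, 19 without PGE2 3 and 22 without Vehicle 2, beside 52.2%, 49.5% and 55.1% of all tested genes. Leaving out Vehicle 1, Vehicle 3 or PGE2 1 gave 25, 26 and 30, beside 54.7%, 56.4% and 62.2%. Median-ratio scaling gave 24 (beside 51.9%) and quantile normalization 26 (beside 51.6%). With mitochondrial genes left out of the scaling it was 28 (beside 58.3%), and with library weights 30 (beside 60.0%). For Mcm5, Mcm7, Cdt1, Rfc4, Prim1 and Rrm1 the mean TPM was higher in PGE2 while the fitted change, a difference of mean logs, was below 0.

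The intervals say how large a change these libraries could have hidden. The half-width of the 95% confidence interval had a median of 0.93 on the log2(TPM + 1) scale over the 33 genes. That is a factor of 1.90 in TPM + 1. The half-width ranged from 0.66 to 1.90. Over all tested genes the median was 1.21. A doubling of TPM + 1 with PGE2 lay outside the interval for 27 of the 33, a halving of it for 14, and both for 12. For a gene of low TPM this is more than a doubling or halving of TPM itself. Fewer intervals may therefore exclude a doubling or halving of TPM.

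**Figure D2:**
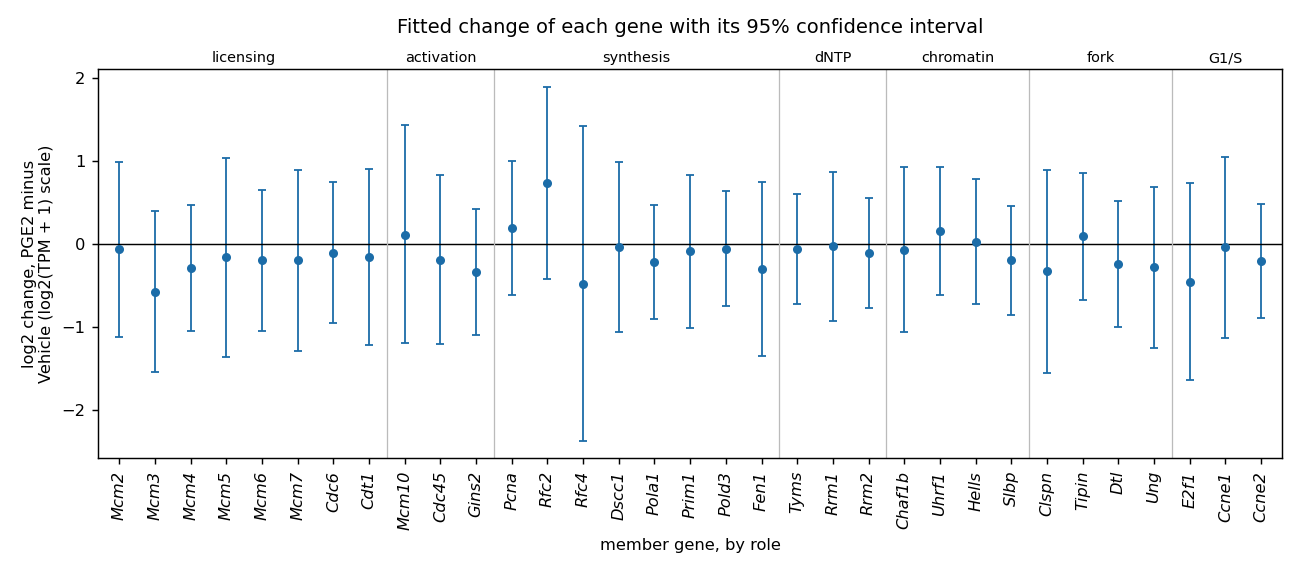
Fitted change of each gene (log2(TPM + 1) scale, PGE2 minus Vehicle, 3 libraries per group, limma) with its 95% confidence interval. Each interval includes 0, with Rfc2 at 0.73 and Mcm3 at -0.58 as the extremes and the widest interval at Rfc4.

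Origin licensing genes were all 8 fitted lower with PGE2 (median log2 change -0.18, 0 past the threshold), a count that stayed at 8 under each of the 3 other scalings and was 4 without PGE2 2 and 3 without PGE2 3. Summed over the 8, the level was 1280.4, 838.9 and 593.5 TPM with Vehicle and 778.5, 814.6 and 487.5 TPM with PGE2, in the order of the library numbers used throughout. The ring genes made up nearly all of that sum. Cdc6 and Cdt1, which load the ring, lay between 15.66 and 29.97 TPM and between 9.34 and 31.23 TPM.

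Mcm3 (ENSMUSG00000041859, chr1:20802968-20820312, minus strand, mm10) stood at 695.68, 370.16 and 241.82 TPM with Vehicle and at 224.05, 424.86 and 196.06 TPM with PGE2. Vehicle 1 stood highest and PGE2 3 lowest, and the groups overlapped. The means were 435.9 ± 234.0 TPM in Vehicle and 281.7 ± 124.8 TPM in PGE2 (SD, n = 3 each). The fitted log2 change of -0.58 (95% interval -1.55 to 0.40) was the lowest of the 33 and did not pass (limma adjusted p = 1.00). It depended on single libraries: it was -0.17 without Vehicle 1, -0.36 without PGE2 3, -0.92 without PGE2 2 and -0.93 without Vehicle 3.

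Its partners in the ring fell into an abundant and a scarce set. Mcm4 stood at 275.28, 203.59 and 128.87 TPM with Vehicle and at 150.21, 195.26 and 134.34 TPM with PGE2, for a log2 change of -0.29 (-1.05 to 0.47). Mcm6 stood at 180.19, 125.40 and 81.44 TPM with Vehicle and at 152.49, 107.29 and 73.91 TPM with PGE2, for -0.20 (-1.05 to 0.65). For both, as for Mcm3, Vehicle 1 was the highest of the 6 libraries, and the groups overlapped.

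Mcm7 read 57.61, 55.71 and 62.68 TPM in Vehicle, a narrow range, and 123.65, 35.25 and 30.09 TPM in PGE2, a wide one that enclosed it. Its log2 change was -0.20 (-1.29 to 0.89). Mcm2 stood at 12.48, 29.25 and 17.49 TPM with Vehicle and at 30.87, 12.88 and 13.98 TPM with PGE2, for -0.06 (-1.12 to 0.99). Mcm5 stood at 20.61, 14.48 and 16.14 TPM with Vehicle and at 36.03, 10.57 and 8.52 TPM with PGE2, for -0.16 (-1.36 to 1.03). In all 3 genes PGE2 1 was the highest library. For Mcm5 and Mcm7 the other PGE2 libraries both lay below each Vehicle library.

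**Figure D3:**
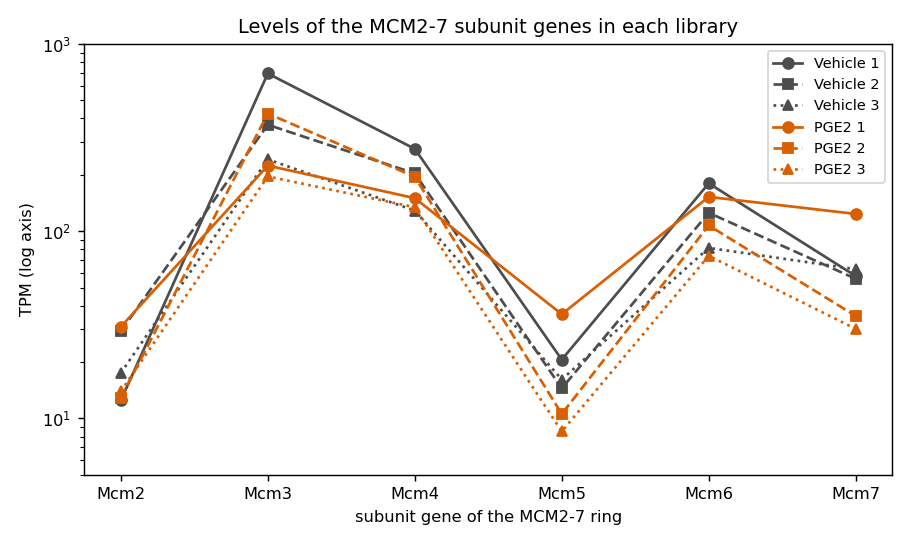
TPM (log axis) of the 6 MCM2-7 subunit genes, 1 line per library. Mcm3 is highest and Mcm2 and Mcm5 are the lowest pair in each library, while PGE2 1 has the flattest profile.

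The ring holds one protein of each kind, yet their transcripts were far from equal, as the plot of the subunit levels shows. Mcm3 was the most abundant in all 6 libraries. The order Mcm3, Mcm4, Mcm6, Mcm7 held in 5 of them, and in PGE2 1 Mcm6 came before Mcm4. Mcm2 and Mcm5 were the lowest pair in all 6. The 3 genes Mcm3, Mcm4 and Mcm6 held 92.7%, 87.5% and 82.4% of the ring's TPM with Vehicle and 73.4%, 92.5% and 88.5% with PGE2. The GC content of the longest coding transcript is 52.5% for Mcm3, 45.5% for Mcm4 and 47.3% for Mcm6. It is 53.4% for Mcm7, 55.5% for Mcm2 and 51.9% for Mcm5. The part of GC content or amplification in these levels was not tested.

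The ratio of Mcm3 to Mcm2 was 55.7, 12.7 and 13.8 in Vehicle and 7.3, 33 and 14 in PGE2. The ratio to Mcm5 was 33.8, 25.6 and 15.0 in Vehicle and 6.2, 40.2 and 23.0 in PGE2. The ratio to Mcm7 was 12.08, 6.64 and 3.86 in Vehicle and 1.81, 12.05 and 6.52 in PGE2. All 3 ratios were lowest in PGE2 1, and the groups overlapped on each. In the annotation, exons of Mcm7 overlap those of Ap4m1 (321 bases) and Cops6 (64 bases) on the other strand, and a processed pseudogene matches Mcm7 at 97.7% over 2157 bases.

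Of the genes that activate the loaded ring, 2 of 3 were fitted lower and none passed (median log2 change -0.19, a split kept under the 3 other scalings). Mcm10, which binds the ring as it is activated, stood at 15.78, 25.85 and 23.03 TPM with Vehicle and at 45.97, 7.67 and 32.61 TPM with PGE2. The PGE2 values thus lay on both sides of all Vehicle values, and the log2 change was 0.11 (-1.20 to 1.43). Gins2, a GINS subunit, stood at 34.87, 24.70 and 41.58 TPM with Vehicle and at 27.07, 24.34 and 26.41 TPM with PGE2, for -0.34 (-1.10 to 0.42). Its Vehicle 2 value lay among the PGE2 values. Gins2 shares 2758 exon bases with Gse1 on the other strand, and Gse1 read 3.92 to 15.97 TPM. Cdc45, the other helicase cofactor, lay between 6.35 and 13.79 TPM.

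DNA synthesis genes were 6 of 8 fitted lower and 2 higher (median log2 change -0.07, 0 past the threshold), and 5 of 8 were lower under median-ratio scaling. Pcna, the sliding clamp (ENSMUSG00000027342, chr2:132249162-132253314, minus strand, mm10), carried most of the sum of this group. It stood at 532.32, 373.54 and 337.08 TPM with Vehicle and at 738.79, 402.47 and 334.86 TPM with PGE2. PGE2 1 was highest and PGE2 3 lowest, and the log2 change was 0.19 (-0.62 to 1.00, limma adjusted p = 1.00). The means were 414.3 ± 103.8 TPM and 492.0 ± 216.3 TPM (SD, n = 3 each).

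Pcna has a near-identical processed pseudogene, Pcna-ps2 (chr19:9283380-9284160, plus strand, mm10), which matches it at 99.2% over 781 bases. That copy was listed at 389.14, 231.70 and 175.43 TPM with Vehicle and 227.07, 289.62 and 209.17 TPM with PGE2, levels above those of most replication genes. How the authors' counting divided reads between the copies is not given in the sources used here, so each of these values is uncertain. The share assigned to the copy was 42.2%, 38.3% and 34.2% in Vehicle and 23.5%, 41.8% and 38.4% in PGE2. It was lowest in PGE2 1, the library with the highest Pcna value.

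**Figure D4:**
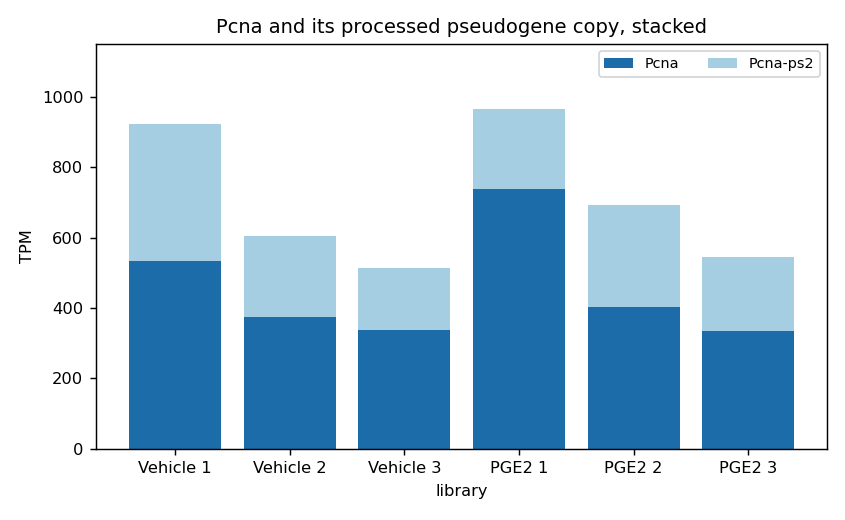
TPM of Pcna (dark) and of its processed pseudogene Pcna-ps2 (light), stacked, in each library. The copy holds 23.5% of the stacked value in PGE2 1 and 34.2% to 42.2% in the other 5 libraries.

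Summed, Pcna and its copy stood at 921.5, 605.2 and 512.5 TPM with Vehicle and at 965.9, 692.1 and 544.0 TPM with PGE2, as the stacked plot shows. On the sum the gap between PGE2 1 and Vehicle 1 narrowed. The log2 change of the sum was 0.12 (-0.67 to 0.90), beside 0.19 for Pcna alone and -0.07 (-0.84 to 0.70) for the copy alone. The groups overlapped on each of these scales.

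The clamp is opened and loaded by replication factor C. Rfc2 stood at 19.91, 13.67 and 6.90 TPM with Vehicle and at 29.73, 28.38 and 11.34 TPM with PGE2. PGE2 1 and PGE2 2 lay above all Vehicle libraries and PGE2 3 below 2 of them. Its log2 change of 0.73 (-0.42 to 1.89) was the highest of the 33, and its unadjusted limma p of 0.187 the smallest. Without Vehicle 3 the log2 change was 0.35 (unadjusted limma p 0.531). Without PGE2 3 it was 1.16, with an unadjusted p of 0.0467 and an adjusted p of 0.834. Exons of Rfc2 overlap 952 bases of Lat2 on the other strand, which read 0.16 to 2.51 TPM.

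Rfc4, another subunit of that loader, varied most among the 33. It stood at 26.35, 27.07 and 11.46 TPM with Vehicle and at 66.29, 3.15 and 11.73 TPM with PGE2, a ratio of 21.04 between the highest and the lowest library. The log2 change was -0.48 (-2.37 to 1.42). Both extremes were PGE2 libraries. Its exons overlap 194 bases of Eif4a2 on the other strand, an abundant gene at 338.14 to 762.73 TPM.

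Prim1, the catalytic primase subunit that starts each new strand, stood at 49.03, 40.88 and 61.45 TPM with Vehicle and at 46.01, 81.03 and 26.91 TPM with PGE2. Its log2 change was -0.09 (-1.02 to 0.83), and the PGE2 libraries included both the highest and the lowest value. Pola1 and Pold3, polymerase subunits, were steadier, between 31.45 and 42.84 TPM and between 39.26 and 58.55 TPM. Fen1, the flap endonuclease that trims Okazaki fragments, lay between 10.98 and 39.24 TPM. Dscc1, part of an alternative clamp loader, lay between 6.30 and 11.06 TPM.

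The 3 genes of deoxynucleotide supply were fitted lower by 0.11 or less on the log2 scale (median -0.06), and with median-ratio scaling or quantile normalization Rrm1 was fitted higher. Rrm2 read 556.42, 592.91 and 577.46 TPM in Vehicle, the closest agreement among the 7 abundant genes, and 690.05, 501.34 and 438.37 TPM in PGE2. The PGE2 values enclosed the Vehicle values, with means of 543.3 ± 131.0 TPM and 575.6 ± 18.3 TPM (SD, n = 3 each). The log2 change was -0.11 (-0.77 to 0.55, limma adjusted p = 1.00).

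Rrm1, the large subunit of the same enzyme, stood at 74.06, 64.57 and 52.88 TPM with Vehicle and at 115.92, 42.08 and 48.51 TPM with PGE2, for a log2 change of -0.03 (-0.93 to 0.87). Here too the PGE2 values enclosed the Vehicle values, with PGE2 1 the highest. Rrm2 exceeded Rrm1 by 7.51, 9.18 and 10.92 times in Vehicle and by 5.95, 11.91 and 9.04 times in PGE2. Tyms, thymidylate synthase, had the narrowest range of the 33, from 41.92 to 54.54 TPM, a ratio of 1.30. A stretch of its transcript matches 10 other genes.

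Chromatin and histone supply genes split evenly, 2 fitted lower and 2 higher with a median log2 change of -0.02 (0 past the threshold), and 3 were lower when mitochondrial genes were left out of the scaling. Hells, a remodelling ATPase that supports DNA methylation, stood at 320.89, 303.58 and 212.02 TPM with Vehicle and at 189.78, 299.05 and 380.59 TPM with PGE2. It was among the 6 of 33 genes that were lowest in PGE2 1, and it was highest in PGE2 3. Its log2 change was 0.02 (-0.73 to 0.78).

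Slbp, which binds the stem-loop of replication-dependent histone transcripts, stood at 283.20, 200.92 and 174.64 TPM with Vehicle and at 161.26, 204.15 and 200.48 TPM with PGE2. It too was lowest in PGE2 1, and the log2 change was -0.20 (-0.86 to 0.46). Uhrf1, which recruits the maintenance methyltransferase to new DNA, stood at 33.91, 39.19 and 34.00 TPM with Vehicle and at 53.48, 41.55 and 27.78 TPM with PGE2, for 0.15 (-0.62 to 0.92). Its PGE2 values lay on both sides of the Vehicle values. Chaf1b, a subunit of chromatin assembly factor 1, lay between 6.34 and 12.52 TPM.

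Fork checkpoint and repair genes were 3 of 4 fitted lower (median log2 change -0.26, 0 past the threshold, the same split under the 3 other scalings). Tipin, which stabilises stalled forks with its partner Timeless, stood at 79.95, 84.57 and 76.10 TPM with Vehicle and at 127.14, 56.04 and 86.88 TPM with PGE2, for 0.09 (-0.68 to 0.85). The PGE2 libraries held both extremes. Dtl, the adaptor that marks Cdt1 for destruction in S phase, stood at 62.80, 39.55 and 59.90 TPM with Vehicle and at 58.53, 44.64 and 34.42 TPM with PGE2, for -0.24 (-1.0 to 0.52). Clspn, a checkpoint mediator, lay between 8.23 and 44.16 TPM with both extremes in PGE2, and Ung, a uracil-DNA glycosylase, between 6.98 and 14.57 TPM.

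The G1/S regulators were all 3 fitted lower (median log2 change -0.21, 0 past the threshold), except that Ccne1 was fitted higher by 0.01 with median-ratio scaling. E2f1 was the scarcest of the 33, at 2.90, 6.52 and 4.84 TPM with Vehicle and 3.58, 2.35 and 3.30 TPM with PGE2. Vehicle 1 lay among the PGE2 values, and the log2 change was -0.46 (-1.64 to 0.73). On the log2(TPM + 1) scale the change of so low a gene is understated.

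The E-type cyclins differed from each other more than they differed between groups. Ccne2 stood at 76.19, 56.38 and 79.43 TPM with Vehicle and at 50.94, 58.23 and 74.37 TPM with PGE2, for a log2 change of -0.21 (-0.89 to 0.48). Ccne1 stood at 5.89, 7.15 and 4.83 TPM with Vehicle and at 5.64, 4.29 and 7.56 TPM with PGE2, for -0.04 (-1.13 to 1.05). Ccne2 thus exceeded Ccne1 by 12.9, 7.9 and 16.4 times in Vehicle and by 9.0, 13.6 and 9.8 times in PGE2. The GC content of the longest coding transcript is 36.3% for Ccne2 and 52.7% for Ccne1, and its part in this ratio was not tested. Ccne2 shares 609 exon bases with Ints8 on the other strand, which read 27.64 to 49.19 TPM.

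The PGE2 libraries spread more widely than the Vehicle libraries, for the 33 genes as for the table as a whole. The SD of the log2 values was larger in PGE2 than in Vehicle for 24 of 33, a share close to the 69.5% of all tested genes. Its median over the 33 was 0.275 in Vehicle and 0.508 in PGE2, beside 0.433 and 0.663 over all tested genes. PGE2 1 was the highest of the 6 libraries for 15 of the 33 (45.5%), beside 30.1% of all tested genes. PGE2 2 was the lowest for 11 (33.3%) and PGE2 3 for 12 (36.4%), beside 25.6% and 23.2% of all tested genes.

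The median deviation of the 33 genes from their mean over libraries was 0.30 on the log2 scale in PGE2 1, -0.15 in PGE2 2 and -0.34 in PGE2 3. The same medians over all tested genes were 0.21, -0.10 and -0.17. In Vehicle 1 to 3 the 33 genes stood at 0.21, 0.06 and -0.05. Housekeeping genes also summed highest in PGE2 1, to 9126.2 TPM against 5398.0 to 6583.8 TPM in the other 5 libraries. The part of library quality in these deviations was not tested. Without PGE2 1 the median log2 change was -0.30 for the 33 and -0.17 for all tested genes. Rfc4 and Mcm7 then had an unadjusted limma p under 0.05, both lower with PGE2 and neither past the threshold. These 2 of 33 (6.06%) stood beside 979 of 12781 genes (7.66%) in the same fit.

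Summed over the 33 genes, the level was 3697.8, 2978.7 and 2573.5 TPM with Vehicle and 3425.2, 2839.0 and 2422.2 TPM with PGE2, or 0.243% to 0.372% of a library. The log2 ratio of the group means was -0.09, beside a spread of 0.26 between libraries of a group. Leaving out 1 library at a time moved the ratio between -0.23 and 0.06, across 0.

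**Figure D5:**
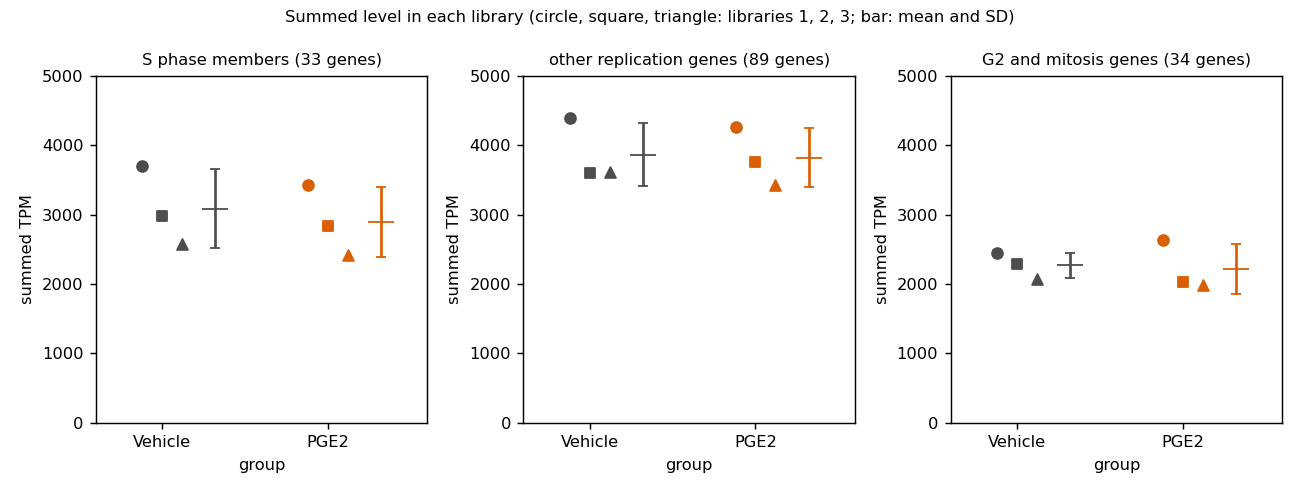
Summed TPM in each library for the 33 S phase genes, 89 other replication genes and 34 G2 and mitosis genes (circle, square and triangle: libraries 1, 2 and 3; bar: mean and SD of 3 libraries). The Vehicle and PGE2 ranges overlap in each panel.

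The rest of the replication machinery did not pass the threshold either. Of 89 other replication genes, all tested, 41 were fitted higher and 48 lower with a median log2 change of -0.03, and 0 passed the threshold. Of the 89, 2 had an unadjusted p under 0.05 (1 in each direction), beside 3.63% of all tested genes. Groups did not overlap for 5 (2 higher and 3 lower), beside 8.01% of all tested genes. Their sum was 4385.9, 3601.0 and 3608.2 TPM with Vehicle and 4269.6, 3759.1 and 3432.5 TPM with PGE2. By list, the split of higher to lower was 6 to 13 for licensing and origin firing genes, 11 to 13 for polymerase, clamp loader and single-strand binding genes, and 3 to 6 for nucleotide supply genes. It was 4 to 4 for chromatin genes, 7 to 8 for fork and recombination genes and 10 to 4 for E2F and CDK2 genes. These splits moved with the scaling and with single libraries. When mitochondrial genes were left out of the scaling, the E2F and CDK2 genes split 8 to 6, and without PGE2 1 they split 5 to 9. Licensing and origin firing genes split 8 to 11 under median-ratio scaling and 10 to 9 without PGE2 2. Nucleotide supply genes split 4 to 5 under median-ratio scaling and 6 to 3 without Vehicle 1.

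Rpa1, the large subunit of the single-strand binding protein RPA that coats unwound DNA behind the MCM ring, stood at 66.77, 38.67 and 37.66 TPM with Vehicle and at 32.31, 11.51 and 20.84 TPM with PGE2. All PGE2 libraries lay below all Vehicle libraries. The log2 change was -1.17 (-2.14 to -0.20), with an unadjusted limma p of 0.0228 and an adjusted p of 1.00.

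Genes of G2 and mitosis, which follow S phase in cycling cells, did not pass either. Of 34, all tested, 12 were fitted higher and 22 lower, with a median log2 change of -0.09 and 0 past the threshold. An unadjusted p under 0.05 was found for 1, beside 3.63% of all tested genes. Groups did not overlap for 2 (1 higher and 1 lower), beside 8.01% of all tested genes. The 22 became 18 under quantile normalization, 28 without PGE2 1 and 17 without PGE2 2. Their sum was 2439.7, 2292.9 and 2071.4 TPM with Vehicle and 2634.1, 2035.0 and 1991.1 TPM with PGE2, and PGE2 1 was the highest library for 13 of them, as it was for 15 of the 33 S phase genes. Nuf2, a kinetochore gene, stood at 22.58, 23.66 and 26.22 TPM with Vehicle and at 40.79, 39.80 and 44.62 TPM with PGE2, with no overlap. Its log2 change was 0.77 (0.07 to 1.46), with an unadjusted limma p of 0.0334 and an adjusted p of 1.00. Of 15 satellite cell quiescence genes, 12 were tested and 0 passed the threshold or an unadjusted p under 0.05. That list summed to 170.5 to 182.6 TPM in Vehicle and 129.6 to 186.5 TPM in PGE2.

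Shared sequence limits what single values mean. A stretch of at least 300 bases at 95% identity or more was found in another gene for 11 of the 33, a processed pseudogene in 6 of them (Cdc6, Mcm7, Pcna, Rrm2, Slbp and Uhrf1). Of these copies 4 were in the table, and apart from Pcna-ps2 none exceeded 12.55 TPM. Exons of 9 members overlap another gene's, and for 7 that is a protein-coding gene on the other strand. Since the sources used here do not state whether strand was used in counting, these values are uncertain.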

How the data were processed

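RNA was sequenced from 3 Vehicle and 3 PGE2 libraries. The authors deposited TPM values in 1 table with a column for each library. The unit stands in no header and was inferred from values with 2 decimals that sum to 992357 to 995645 per library. Per the submitters' processing notes, STAR, RSEM and the build mm10 were used; their versions and settings and the annotation were not given in the sources used here. TPM keeps no depth, so no counting interval is given.

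The 12781 genes that reached 1 TPM in 3 or more libraries were tested on log2(TPM + 1) by limma 3.58.1 (R 4.3.3), with a mean trend in the variance prior, as PGE2 minus Vehicle. Tests were two-sided, p-values were adjusted by Benjamini-Hochberg over the whole tested table, and the threshold was 0.05. Intervals are 95% confidence intervals of that fit. The fit was tested on simulated data. Alternatives varied the pseudocount, filter, scaling, prior, library weights, replicate block and libraries. The sum with Pcna-ps2 was added after the values were seen.

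The 33 members and all gene lists were chosen with earlier results of these data known. Values in every library are given for the MCM2-7 ring, the 2 genes with the highest mean of each role, and the 3 largest and 3 smallest log2 changes. Of the other lists, genes with an unadjusted p under 0.05 and a mean of 5 TPM or more are named. Of these, 1 is not reported here. Gene positions and transcripts came from GENCODE M21 and were compared with BLAST 2.17.0 (95% identity over 300 bases). Promoter windows came from RefSeq (GRCm38.p6).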

Additional observations from a re-analysis of the deposited data

How the results depend on the processing

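No member passed the threshold under any alternative run, and the lowest adjusted p of the 22 genes given in every library was 0.582. Of their 352 alternative values, 35 in 15 genes turned direction, 28 of them on leaving out a library. Library weights turned Mcm10 (-0.07), Uhrf1 (-0.02) and Tipin (-0.02). Median-ratio scaling turned Rrm1 (0.02) and Ccne1 (0.01), quantile normalization Rrm1 (0.05), and leaving mitochondrial genes out of the scaling Hells (-0.00). Leaving out each library in turn gave log2 changes from -0.44 to 0.25 for Mcm2, -0.77 to 0.21 for Mcm5, -0.49 to 0.08 for Mcm6, -0.83 to 0.17 for Mcm7, -0.37 to 0.84 for Mcm10, -0.15 to 0.42 for Pcna, -1.55 to 0.46 for Rfc4, -0.49 to 0.29 for Prim1, -0.48 to 0.24 for Rrm1, -0.30 to 0.03 for Rrm2, -0.07 to 0.39 for Uhrf1, -0.20 to 0.30 for Hells, -0.35 to 0.00 for Slbp, -0.20 to 0.39 for Tipin and -0.22 to 0.13 for Ccne1. The 7 genes that kept their direction ranged from -0.93 to -0.17 (Mcm3), -0.58 to -0.04 (Mcm4), -0.54 to -0.17 (Gins2), -0.44 to -0.05 (Dtl), -0.71 to -0.24 (E2f1), -0.36 to -0.09 (Ccne2) and 0.35 to 1.16 (Rfc2). Over the same 6 fits 0 to 2 genes of all tested passed the threshold (2 without PGE2 3), 0 to 2 members had an unadjusted p under 0.05 (Rfc4 and Mcm7 without PGE2 1, Rfc2 without PGE2 3), and 314 to 979 of all tested genes did (979 without PGE2 1, 758 without PGE2 3). A robust prior let 1 gene pass. With a filter of 5 TPM, 257 of 8336 genes had an unadjusted p under 0.05. The fits without a library used fewer libraries, and the filter of 5 TPM left fewer genes. The cause of these shifts was not tested. The median log2 change of the 33 stayed between -0.30 (without PGE2 1) and -0.03 (without PGE2 2). No pairing of the libraries by replicate number was seen: deviations of same-numbered libraries correlated at -0.05, -0.02 and 0.08 over 8517 genes, others at -0.09 to 0.11. These correlations cannot show whether same-numbered libraries share a mouse, sort or culture. With the replicate number as a block the median was -0.16, 27 members were fitted lower, 0 passed and 482 genes had an unadjusted p under 0.05. The number of libraries limits what can be seen, and depth is unknown.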
